A study of Mus musculus with 8 samples.

Results

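The atypical chemokine receptors are a small family of 5 mouse genes on these arrays, Ackr1, Ackr2, Ackr3, Ackr4 and Ccrl2. Their probes were found by looking up the RefSeq transcript given for each non-control probe, which gave 6 probes among 55681, for 5 of the 20145 genes that could be named. Ackr2 had 2 probes and each of the other genes 1. The study measured sorted bone marrow progenitors of mice that lack ACKR1, and the question for this family is which of its members the progenitors carry and whether any of them differs with genotype or population. Ackr1 is the disrupted gene itself.

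There were 8 one-colour arrays in 4 groups of 2: GMP of ACKR1-deficient mice, GMP of wild-type mice, LSK of ACKR1-deficient mice and LSK of wild-type mice. GMP are granulocyte-macrophage progenitors, sorted as lineage-negative, Sca1-negative and cKit-positive cells that carry CD34 and CD16/32. LSK are lineage-negative cells positive for Sca1 and cKit, which hold stem cells and multipotent progenitors. All mice were female, 12 weeks old and untreated as far as the labels say, on a C57Bl/6J background, and the wild-type mice were littermates of the deficient ones from heterozygous breeding. The labels name no Cre or promoter and do not say how the gene was disrupted. Nor is it given whether the 2 arrays of a group came from different animals. The p-values therefore cover the spread between these samples alone, which may be technical.

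Typical chemokine receptors signal through G proteins and move cells along a chemokine gradient. Atypical receptors bind chemokines without that signal and instead take them up, carry them across cells or hold them on the surface, which shapes the gradients that other receptors read. ACKR1, the Duffy antigen, binds many inflammatory chemokines and is known from red cells, their nucleated precursors and the endothelium of venules. ACKR2 scavenges inflammatory CC chemokines, ACKR3 takes up CXCL12, the chemokine that holds stem cells in the marrow through CXCR4, and ACKR4 takes up the homeostatic chemokines CCL19, CCL21 and CCL25. CCRL2 binds chemerin, the product of Rarres2, and presents it to the signalling receptor CMKLR1.

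All arrays shared 1 slide, on which every deficient sample sat in column 1 and every wild-type sample in column 2. The effects of column and genotype cannot be told apart. Rows 1 and 3 of the slide held LSK, and rows 2 and 4 held GMP. Replicate 1 sat in rows 1 and 2, and replicate 2 in rows 3 and 4. Slide row therefore cannot be told apart from population, nor from replicate within a population. Deficient LSK replicate 2 stood apart: 34.3% of its spots were well above background, against 62.5% to 73.1% on the other arrays, and its signal at the 75th percentile reached 24.6, where the others had 196 to 766. Its correlations with the other 7 arrays were 0.690 to 0.784, whereas those among the other arrays were 0.860 to 0.976. Deficient GMP replicate 1 was the next array to be doubted, with r of 0.898 to deficient GMP replicate 2, where the wild-type GMP pair had 0.976. Marker genes of the sorted populations separated wild-type GMP from wild-type LSK, with 5 of 8 GMP markers called higher and 5 of 8 LSK markers called lower in GMP (limma, adjusted p under 0.05), where 0.502% of all features were called higher and 1.35% lower. In deficient cells 0 of 8 of each list were called, in a comparison that called 0% of features. There 6 GMP and 4 LSK markers had an unadjusted p under 0.05, as did 16.7% of all features. Ly6a, which encodes the Sca1 antigen used in the sort, was an exception, at 2.84 and 3.12 in wild-type GMP against 1.84 and 3.80 in wild-type LSK (log2 levels as defined below). It was −0.16 and 2.24 in deficient GMP, against 0.37 and −1.06 in deficient LSK, where the second reading was not well above background. Both deficient LSK readings thus lay below both wild-type LSK readings. In these bulk samples, fewer cells that carry a transcript and less of it per cell cannot be told apart.

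Ackr1 lies on chromosome 1 and Ccrl2 on chromosome 9, and these were the members whose signal stood well clear of background. The RefSeq promoters of the 5 genes (GRCm38.p6, 250 bases before to 50 after the annotated start) were searched on both strands for AGATAA, a form of the GATA motif, because erythroid GATA factors are known to drive the human ACKR1 gene in red cell precursors. The Ackr1 window held 1 match, which reads TTATCT on the minus strand along which Ackr1 is transcribed, 25 bases after the start. It is shown here in a 30-base stretch with the match in capitals, below the 250 bases before the start, which hold none. The sequence before the start of Ccrl2 is shown beside it as the other well-detected member. Its window at this start held no match, while the windows of 2 alternative Ccrl2 starts overlap and held the same 1 match. The windows of Ackr2, Ackr3 and Ackr4 held 0.
Ackr1 before the start, chr1:173333504-173333753, minus strand: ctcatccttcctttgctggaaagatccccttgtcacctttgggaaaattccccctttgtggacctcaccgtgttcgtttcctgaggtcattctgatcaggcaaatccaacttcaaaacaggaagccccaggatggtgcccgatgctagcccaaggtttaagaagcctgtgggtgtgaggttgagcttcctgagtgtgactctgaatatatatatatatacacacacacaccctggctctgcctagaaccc
Ackr1 around the match, chr1:173333461-173333490, minus strand: agccctgggcacTTATCTtggagccacagc
Ccrl2 before the start, chr9:111057519-111057768, minus strand: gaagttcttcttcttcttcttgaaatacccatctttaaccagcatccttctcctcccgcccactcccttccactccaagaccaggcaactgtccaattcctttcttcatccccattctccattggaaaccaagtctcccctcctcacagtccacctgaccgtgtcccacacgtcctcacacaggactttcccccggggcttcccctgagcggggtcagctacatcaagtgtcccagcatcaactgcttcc
AGATAA was present in 11.2% of the 32851 promoter windows of this length, in 12.7% of the 27025 genes when any of a gene's windows counted, and in 4 of the 14 erythroid precursor genes that had a window (28.6%). A match of 6 bases is a description of the sequence and not a binding site.

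The processed signal is the background-corrected brightness of a probe, and Feature Extraction marks each spot as well above background or not. The Ackr1 probe gave processed signals of 188 and 423 in deficient GMP, against 251 and 439 in wild-type GMP. It gave 173 and 13.6 in deficient LSK, against 179 and 372 in wild-type LSK. The 13.6 was the reading of deficient LSK replicate 2, and this was the array on which the probe was not well above background, leaving 7 of 8 arrays that measured it. Whether the probe falls inside the disrupted stretch of the gene is not given by the labels, so its signal in deficient samples checks nothing about their genotype.

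Ccrl2 was well above background on all 8 arrays. Its processed signals were 224 and 450.0 in deficient GMP, against 510 and 721 in wild-type GMP. They were 240 and 40.0 in deficient LSK, against 296 and 1344 in wild-type LSK. The lowest reading again came from deficient LSK replicate 2, whose signals were low throughout.

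The scavenging members Ackr2, Ackr3 and Ackr4 lay near or below the limit of detection, which on these arrays was a signal of 9.34 to 14.9 (the lowest signal of any probe well above background on each array). The first Ackr2 probe, A_52_P222073, gave 14.04 and 28.3 in deficient GMP, against 11.9 and 16.2 in wild-type GMP. It gave 10.5 and 17.7 in deficient LSK, against 12.4 and 22.6 in wild-type LSK. The second value of each pair, replicate 2, was well above background and the first was not. Detection thus followed the replicate number, which within each population went with the slide row, and not the genotype or the population. The second Ackr2 probe, A_66_P108856, was well above background on 0 of 8 arrays, with signals of 2.57 to 3.83.

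Ackr3, the CXCL12 scavenger, was well above background on 3 arrays, which were replicate 2 of deficient GMP, of wild-type GMP and of wild-type LSK. Its signals were 4.23 and 24.4 in deficient GMP, against 6.27 and 27.6 in wild-type GMP. Those of LSK were 8.91 and 2.94 in deficient cells, against 14.4 and 16.6 in wild-type cells. In both GMP groups the replicates differed more than the genotypes did. Ackr4 was well above background on 0 of 8 arrays, with signals of 2.57 to 3.85. On 5 of the 8 arrays the Ackr4 probe and the second Ackr2 probe read the lowest signal of the array, so they carry no order between samples. At this signal over background, differences in Ackr2, Ackr3 or Ackr4 were not detectable, and no fold is given for them.

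**Figure D1:**
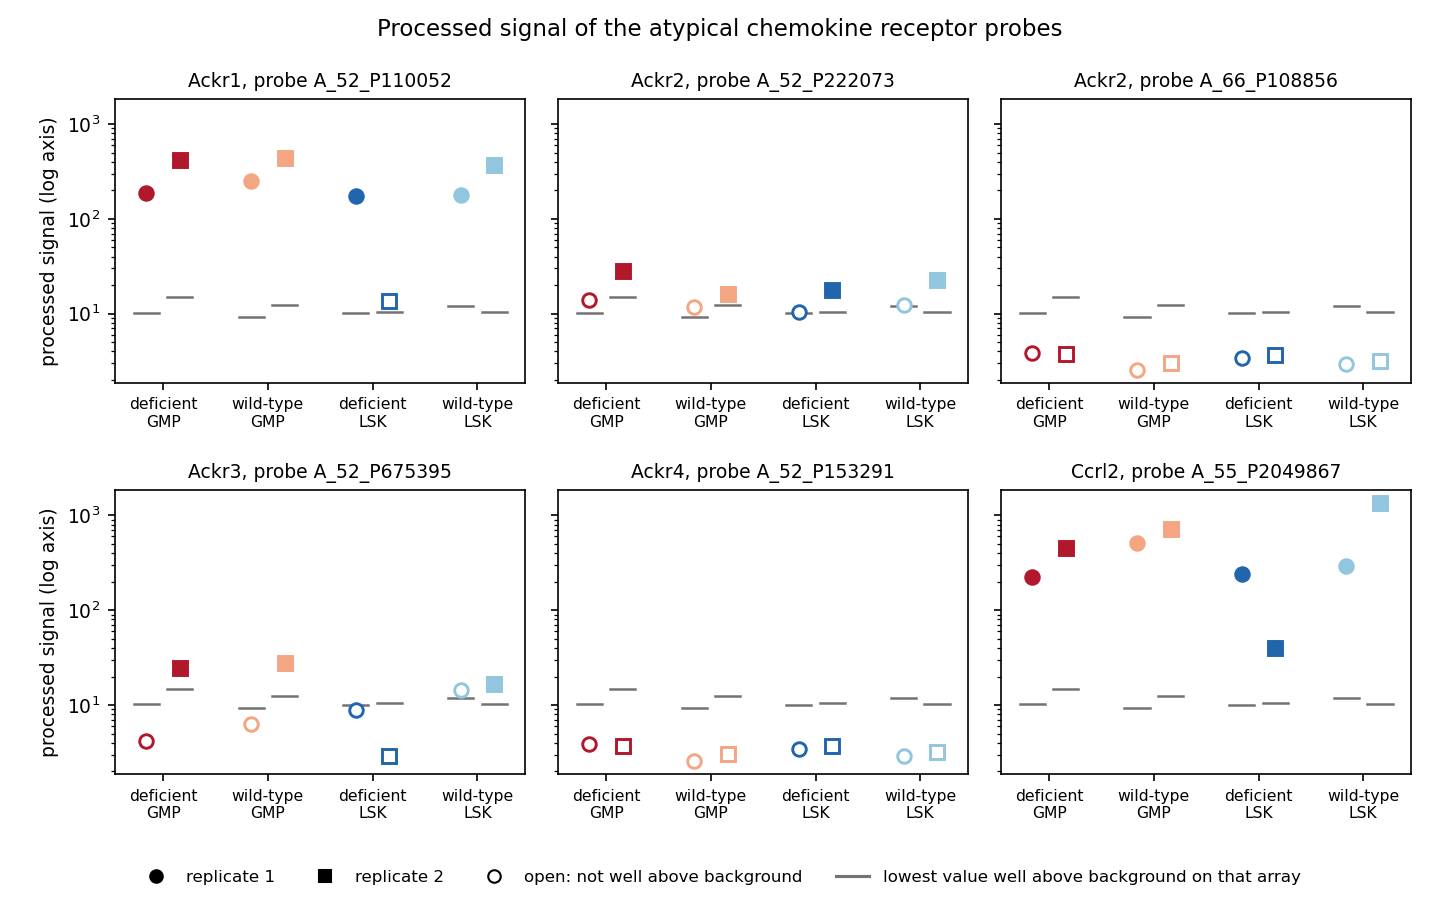
Processed signal (log axis) of each of the 6 probes on the 8 arrays, by group, with replicate 1 as a circle and replicate 2 as a square, filled where the probe was well above background. The grey bar at each point is the lowest signal well above background on that array. Ackr1 and Ccrl2 lie far above the bars on every array but deficient LSK replicate 2, where Ackr1 reads 13.6 and Ccrl2 40.0, whereas Ackr4 and the second Ackr2 probe lie below them on all 8.

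To compare arrays of different brightness, levels are given as log2 signal minus the log2 of the 75th percentile of the same array, so that 0 is the brightness of that percentile. Features entered the test when some group had both of its arrays well above background for the probe. Of the 5 genes, Ackr1 and Ccrl2 passed this filter and are 2 of the 28088 features tested. The other 3 passed in no group. The scale can also mislead near background, because the dim array, deficient LSK replicate 2, gives a low signal a higher level. Ackr4 read −2.73 there and between −7.91 and −5.67 on the other arrays, at nearly the same signal. The Ackr1 level on that array shares this limit. It lay 0.59 above the lowest level well above background, against 4.44 to 5.64 on the other arrays.

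The level of Ackr1 was −0.06 and −0.15 in deficient GMP, against −0.49 and −0.44 in wild-type GMP. It was −0.69 and −0.85 in deficient LSK, against −0.65 and −1.04 in wild-type LSK. The −0.85 is the reading of the dim array, not well above background. Both deficient GMP arrays were therefore the highest of all, both wild-type GMP arrays came next, and the 4 LSK arrays were lowest with their genotypes interleaved. In GMP the mean was −0.11 (SD 0.065) for deficient and −0.46 (SD 0.037) for wild-type arrays. In LSK it was −0.77 (SD 0.11) for deficient and −0.85 (SD 0.28) for wild-type arrays (n = 2 arrays each). Of the neighbours in this order, only deficient and wild-type LSK overlapped.

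The level of Ccrl2 was 0.19 and −0.06 in deficient GMP, against 0.53 and 0.28 in wild-type GMP. It was −0.22 and 0.70 in deficient LSK, against 0.07 and 0.81 in wild-type LSK. Within LSK the replicates of a genotype differed more than the genotypes, and in GMP both deficient arrays lay below both wild-type ones. In GMP the mean was 0.065 (SD 0.18) for deficient and 0.40 (SD 0.18) for wild-type arrays. In LSK it was 0.24 (SD 0.65) for deficient and 0.44 (SD 0.52) for wild-type arrays (n = 2 each). In the order of these means, wild-type LSK, wild-type GMP, deficient LSK and deficient GMP, every neighbouring pair overlapped.

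**Figure D2:**
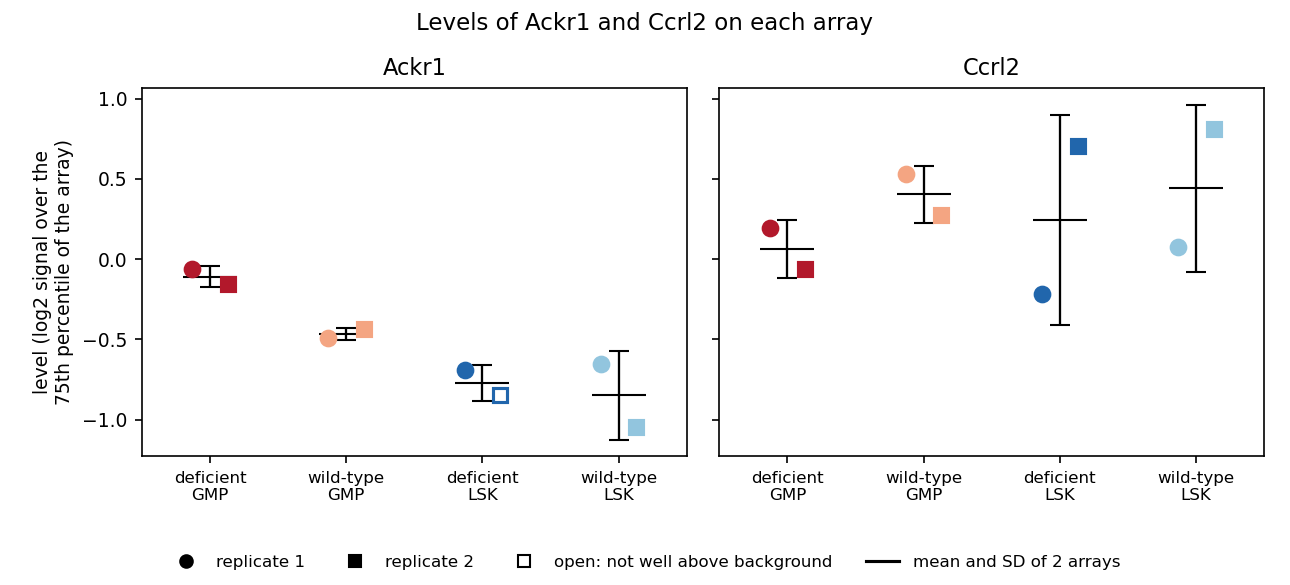
Level of Ackr1 and of Ccrl2 (log2, relative to the array's 75th percentile) on each of the 8 arrays, with the mean and SD of the 2 arrays of a group as black bars. Ackr1 steps down from deficient GMP (mean −0.11) through wild-type GMP (−0.46) to both LSK groups (−0.77 and −0.85), while the Ccrl2 replicates of each LSK group span most of its range.

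Both genes had a narrow range over the 8 arrays. The 8 levels of Ackr1 spanned a log2 of 0.98, a 1.97-fold range, and those of Ccrl2 spanned 1.03, a 2.04-fold range, against a median range of 2.77 over all features. A larger range than theirs was seen in 96.9% and 96.2% of features. These shares include the dim array, on which probes near background can read high, and were not computed without it. The ranges of Ackr1 and Ccrl2 were the same without that array. Levels of Ackr1 and Ccrl2 ran in opposite directions, with a Pearson r of −0.54 over the 8 arrays and −0.45 over 7 without deficient LSK replicate 2. These points share arrays and scaling, and the coefficient is a description.

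Neither Ackr1 nor Ccrl2 was called between deficient and wild-type GMP, where 0.146% of all features were called (limma, adjusted p under 0.05). Ackr1 had a difference of 0.36 on the log2 scale (SE 0.609, 95% interval −1.01 to 1.72, adjusted p = 0.999653). The deficient GMP arrays lay above the wild-type ones without overlap, as 19.8% of all features did. Ccrl2 had −0.34 (SE 0.663, interval −1.82 to 1.14, adjusted p = 0.999653), with no overlap in the lower direction, as for 19.6% of features.

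In LSK, where 0.239% of all features were called, Ackr1 had a difference of 0.08 between deficient and wild-type cells (SE 0.609, 95% interval −1.28 to 1.44, limma, adjusted p = 0.955116). Ccrl2 had −0.20 (SE 0.663, interval −1.68 to 1.28, adjusted p = 0.891299). Both pairs of groups overlapped. The direction is not settled for either gene: without wild-type LSK replicate 2 the Ackr1 difference was −0.12 and that of Ccrl2 0.17, without deficient LSK replicate 1 Ccrl2 had 0.26, and Ackr1 had −0.18 under quantile normalization and −0.49 under median scaling.

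Averaged over GMP and LSK, a comparison in which 0.602% of features were called, Ackr1 had 0.22 in deficient against wild-type cells (SE 0.431, 95% interval −0.75 to 1.18, limma, adjusted p = 0.849541). As a ratio, that interval runs from 0.596 to 2.27 times the wild-type level, so it holds equal levels as well as a fall to 0.596 times. Under median scaling the averaged difference was −0.21. Ccrl2 had −0.27 (SE 0.469, interval −1.32 to 0.78, adjusted p = 0.828767). The genotype difference in GMP minus that in LSK was 0.28 for Ackr1 (interval −1.65 to 2.20, adjusted p = 0.971225) and −0.14 for Ccrl2 (interval −2.24 to 1.96, adjusted p = 0.987721), in a test that called 0% of features by limma and found 697 (2.48%) at an unadjusted p under 0.05. The difference for Ackr1 turned to −0.075 under normexp background correction, and that for Ccrl2 turned positive in 5 of 21 alternatives.

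The width of these intervals comes mostly from the spread that limma borrows across features. The residual SD of Ackr1 itself was 0.153 and that of Ccrl2 0.437, against moderated SDs of 0.609 and 0.663, on 4 residual and 5.75 prior degrees of freedom. A p that misses the threshold does not show that the levels were equal.

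Between populations, the wild-type difference of GMP minus LSK was 0.38 for Ackr1 (SE 0.609, 95% interval −0.98 to 1.75, limma, adjusted p = 0.999964) and −0.04 for Ccrl2 (SE 0.663, interval −1.52 to 1.44, adjusted p = 0.999964), while 1.85% of all features were called. The wild-type GMP arrays lay above the wild-type LSK arrays for Ackr1 without overlap, as 28.5% of features did. In deficient cells, Ackr1 had 0.66 (interval −0.70 to 2.02, adjusted p = 0.594912), again without overlap, as for 18.4% of features. Ccrl2 had −0.18 there (interval −1.66 to 1.304, adjusted p = 0.904072). That comparison called 0% of features by limma, with 4700 (16.7%) at an unadjusted p under 0.05.

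Set over all arrays, the 4 GMP arrays lay above the 4 LSK arrays for Ackr1, with a mean level of −0.29 (SD 0.21) in GMP and −0.81 (SD 0.18) in LSK (n = 4 each). The difference was 0.52, a 1.44-fold higher signal in GMP (SE 0.431, 95% interval −0.44 to 1.49). It was not called over all features (limma, adjusted p = 0.549382), in a comparison that called 3.42% of them. An exact two-sided permutation test of this single gene gave p = 0.0285714, the smallest that 4 against 4 arrays can give. It shuffled the arrays across genotypes. This comparison was chosen after the values were seen. Any full separation gives that p, so it adds nothing to the separation itself. The unadjusted limma p was 0.25365. All GMP arrays lay above all LSK arrays for 7.99% of features, and 12.7% separated in either direction. The separation held under quantile normalization (0.66) and median scaling (0.99), and was lost under normexp background correction, where the difference was 0.29 (exact permutation p = 0.142857). Leaving out each array in turn gave 0.43 to 0.62. Ccrl2 showed no such separation, with −0.11 (exact permutation p = 0.685714), and 0.36 under median scaling.

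**Figure D3:**
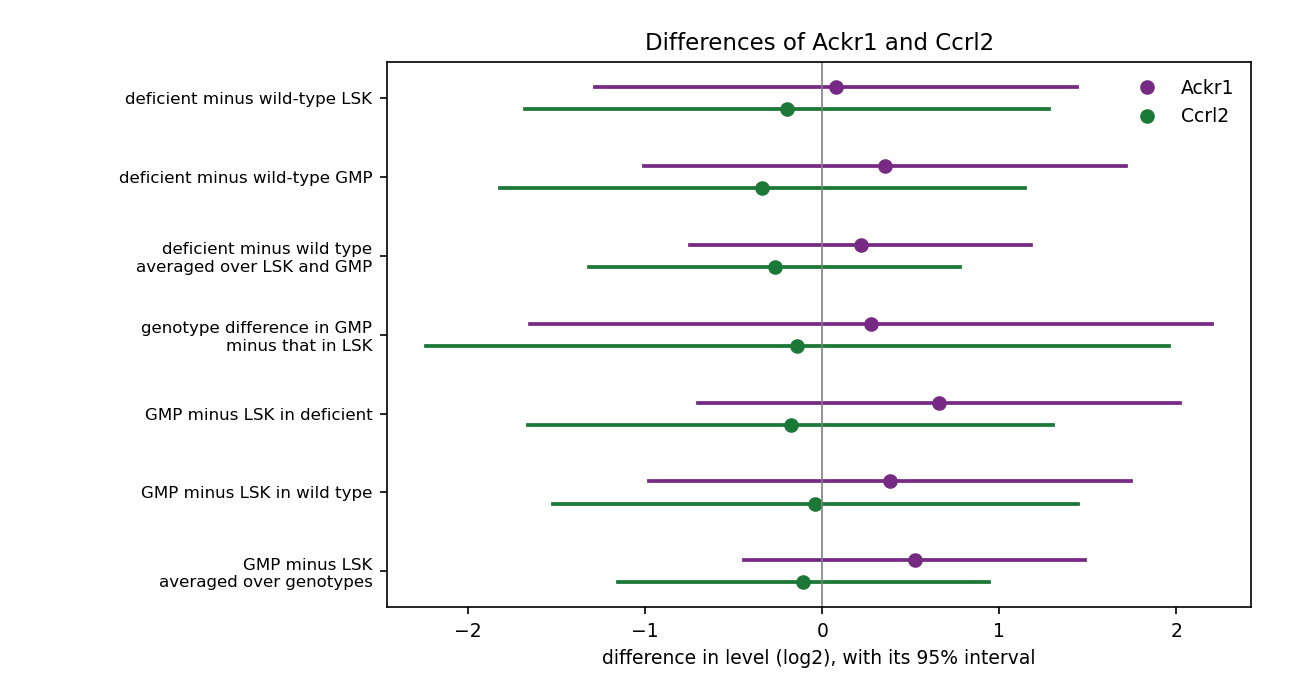
Difference in level (log2) of Ackr1 and Ccrl2 in each comparison, as a point with its 95% interval from the fit over all 8 arrays. Every interval includes 0, and the highest point is Ackr1 in deficient GMP minus deficient LSK, at 0.66.

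The genes whose levels ran most like Ackr1 over the 8 arrays were F630028O10Rik (Pearson r 0.974), Serpinb1c (0.971), a member of a serine protease inhibitor family, and Mcmbp (0.939), which encodes a protein that binds the replicative helicase. Without deficient LSK replicate 2, over 7 arrays, they were Rab8a (0.977), Pstpip2 (0.975) and Pds5a (0.975), which over 8 arrays had only 0.502, 0.684 and 0.268. For Ccrl2 the closest genes were Klhl42 (0.954), Ube2d1 (0.945) and Daxx (0.903) over 8 arrays. Over 7 arrays they were Ss18l1 (0.971), Efemp2 (0.970) and Tspan14 (0.968), the last of which had −0.19 over 8. The lists shared no gene with and without that array, and they describe likeness over few points that share arrays.

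The chemokine ligands that the 5 receptors bind were followed in a list of 21 genes, of which 19 had a named probe and 14 passed the filter. None was called between genotypes: 0 of 14 in GMP, 0 of 14 in LSK and 0 of 14 in their average, with 4, 1 and 4 at an unadjusted p under 0.05 (limma), a mark that 4.82%, 8.83% and 12.2% of all features passed. The median averaged difference was 0.30, against 0.16 over all features. Cxcl12, the ligand of ACKR3 and CXCR4, showed one of the wider gaps. Its level was −0.58 and −3.06 in deficient GMP, against −7.10 and −5.60 in wild-type GMP, where neither array was well above background.

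Both deficient GMP arrays lay above both wild-type GMP arrays for Cxcl12, as for 19.8% of all features. Between the group means the gap was at least 14.4-fold, but the difference of 4.53 was not called (SE 1.105, limma, adjusted p = 0.35274). It ranged from 1.45, under normexp correction, to 5.77 over 21 alternatives, and was called in 1 of them, the fit with slide row as a block (adjusted p = 0.0017684). That fit called 193 of all features in GMP, against 41 without a block. In LSK, Cxcl12 was 0.13 and −2.70 in deficient cells, against −2.75 and −2.22 in wild-type cells, and one deficient replicate lay above both wild-type arrays while the other, not well above background, lay between them. Averaged over both populations it had 2.87 (SE 0.781, adjusted p = 0.272141), and was called with slide row as a block (0.00393212) and with a crossed replicate block in LSK (0.0182826). Those blocks called 907 and 1300 of all features in the average, against 169 without a block. The crossed block was added after the data were seen. Ccl3, an inflammatory chemokine, had −2.17 in the average (adjusted p = 0.351013) and Ccl5, a chemokine bound by ACKR1 and ACKR2, had 0.98 (adjusted p = 0.451982), neither of them called. Ccl3 passed the threshold without deficient LSK replicate 1 (−3.01, adjusted p = 0.0383815) and with the crossed block (0.0331786).

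Between populations in wild type, 0 of 14 ligands were called, with 4 at an unadjusted p under 0.05, where 8.4% of all features had such a p. Cxcl12 had −3.87 (adjusted p = 0.167906), Ccl3 −1.73 (adjusted p = 0.801322) and Ccl5 −2.82 (adjusted p = 0.105286, limma) in GMP minus LSK. With array weights Cxcl12 (adjusted p = 0.00983468) and Ccl5 (0.010672) were called, and Cxcl12 also in the wild-type arrays alone (0.0280894) and without both doubted arrays (0.0280894). Over all 8 arrays Ccl2, a monocyte-attracting chemokine bound by ACKR1 and ACKR2, was higher in GMP. Its level was −0.220 and −1.003 in deficient GMP, against −2.81 and −2.76 in deficient LSK, where the second array was not well above background. Wild-type GMP had −0.26 and −0.46, against −3.22 and −3.17 in wild-type LSK. The 4 GMP arrays lay above the 4 LSK arrays, as for 7.99% of all features. The difference was 2.50 (SE 0.444, limma, adjusted p = 0.0151243). In that comparison 1.17% of all features were called higher and 2.25% lower, and 19.9% had an unadjusted p under 0.05. That call was lost without either wild-type LSK array (adjusted p = 0.0936 and 0.0628464) or either wild-type GMP array (0.112798 and 0.0938834). It was also lost under normexp correction, where the difference was 1.18 (adjusted p = 0.155607), under quantile normalization (3.12, 0.058677) and with no filter (0.0504766).

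Signalling receptors that share these ligands made a list of 12, of which 9 passed the filter, and Ccr1, Ccr4 and Cmklr1 did not. Between genotypes 1 of 9, Cxcr2, was called higher in LSK and in the average, where 0.239% and 0.595% of all features were. In GMP it was 0 of 9, with 1 at an unadjusted p under 0.05, as for 4.82% of all features. Cxcr2 is the neutrophil receptor for CXC chemokines that ACKR1 also binds. Its level was 1.304 and 0.54 in deficient LSK, against −3.65 and −3.42 in wild-type LSK. It was 0.58 and 0.53 in deficient GMP, against −1.29 and −1.47 in wild-type GMP. In both populations the deficient arrays stood above the wild-type ones, as they did for 16.4% of all features in LSK and 19.8% in GMP, and all 8 readings were well above background.

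Cxcr2 rose by 4.46 in deficient LSK (SE 0.629, limma, adjusted p = 0.0257138) and by 3.20 in the average (SE 0.445, adjusted p = 0.0124052), while its GMP difference of 1.94 was not called (adjusted p = 0.760274). The LSK call was lost in 11 of 22 alternatives, among them leaving out either wild-type LSK array (adjusted p = 0.20505 and 0.271246), deficient LSK replicate 2 (0.0864363) or either wild-type GMP array (0.0590163). The average lost its call without either wild-type LSK array (adjusted p = 0.0854159 and 0.0789093), without either wild-type GMP array (0.0668671 and 0.0873469), without deficient GMP replicate 1 (0.0590258) and under median scaling (0.142004).

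Cxcr2 is also in the list of maturing neutrophil genes, and 11 of 11 tested genes of that list were called higher in the averaged comparison, with a median of 8.68, against 0.595% of all features called higher and a median of 0.16 over all of them. Their summed level, in units of the 75th percentile, was 1261 to 3357 in deficient GMP against 8.86 to 17.3 in wild-type GMP, and 1367 to 3276 in deficient LSK against 3.38 to 10.67 in wild-type LSK. The part of neutrophil transcripts in the Cxcr2 result was not tested.

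The other named receptors were not called between genotypes. In the average, Ccr2, the CCL2 receptor of monocytes and their progenitors, had 2.41 (adjusted p = 0.262192). It was called in 3 of 21 alternatives, with slide row as a block (adjusted p = 0.0262469), with the crossed block in LSK (0.0171158) and without deficient GMP replicate 2 (3.11, 0.0489172). In the average, those blocks called 907 and 1300 of all features, against 169 without a block. Cxcr4, the CXCL12 receptor that retains progenitors in the marrow, had 0.16 (adjusted p = 0.900484) and Ccr7, the receptor for CCL19 and CCL21, had −0.08 (adjusted p = 0.948664, limma). The sign of Cxcr4 and of Ccr7 changed under some alternatives.

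Between populations in wild type, 2 receptors were called, in opposite directions. Ccr2 was 2.44 and 1.84 in wild-type GMP, against −3.75 and −2.89 in wild-type LSK, a rise of 5.46 (SE 0.910, limma, adjusted p = 0.0167576). Ccr9, the receptor for CCL25 known from thymus-seeding progenitors, was −6.43 and −5.48 in wild-type GMP, not well above background on either array, against −0.22 and 0.07 in wild-type LSK. At the 75th percentile scale it was at least 46.3-fold lower in GMP (difference −5.88, SE 0.815, adjusted p = 0.00844954), while normexp correction gave a smaller difference of −2.79, still called. Ccr2 and Ccr9 were the receptors called, 1 of 9 in each direction, while 0.502% of all features were called higher and 1.35% lower.

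Leaving out a wild-type array ended the wild-type call of Ccr2 in each of 4 cases, with adjusted p of 0.176048 and 0.104684 without wild-type LSK replicate 1 and 2, and 0.114064 and 0.089879 without wild-type GMP replicate 1 and 2. Ccr9 lost its call without either wild-type LSK array (adjusted p = 0.0792707 and 0.0937779) and without wild-type GMP replicate 1 (0.0756188). Quantile normalization and median scaling also ended both calls, with adjusted p of 0.0782693 and 0.0547031 for Ccr2 and 0.149295 and 0.0632646 for Ccr9, and Ccr2 lost its call with no filter (0.0556478). In the same comparison Cxcr4 had 1.29 (adjusted p = 0.740852), Cxcr2 2.15 (adjusted p = 0.182567) and Ccr7 −1.70 (adjusted p = 0.386199), none of them called. Cxcr2 was called there in 3 of 20 alternatives, in the wild-type arrays alone (adjusted p = 0.0343104), with array weights (0.00631871) and without both doubted arrays (0.0343104), and Ccr7 in 1, with array weights (0.0210749). Over all 8 arrays, Ccr2 had 4.30 (adjusted p = 0.00699647) and Ccr9 −4.25 (adjusted p = 0.00431108), and both were called. Ccr2 was called in 19 of 19 alternatives there and Ccr9 in 18, the exception being quantile normalization (−3.45, adjusted p = 0.110525).

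Arrestins and receptor kinases, which act on some chemokine receptors after ligand binding, made a list of 6 genes, all of them tested. None was called between genotypes or populations, with 0 of 6 at an unadjusted p under 0.05 in each comparison (limma). Arrb1 and Arrb2 encode the beta-arrestins. Arrb1 was 3.45 and 3.21 in deficient GMP, against 3.40 and 3.41 in wild-type GMP. In LSK it was 3.998 and 3.17 in deficient cells, against 3.79 and 3.60 in wild-type cells. The groups overlapped in both populations, and the averaged difference was −0.09 (95% interval −1.09 to 0.91, adjusted p = 0.939491). Arrb2 had 0.47 (interval −0.55 to 1.49, adjusted p = 0.6896). In wild type, GMP minus LSK was −0.29 for Arrb1 and 0.35 for Arrb2 (adjusted p = 0.999964 for both).

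ACKR1 is known from red cell precursors and venular endothelium, so the markers of these cells were set beside the Ackr1 levels. Of 17 tested erythroid precursor genes, 4 were called higher in deficient GMP, 5 in deficient LSK and 10 in the average, with medians of 4.47, 4.74 and 4.62. Of all features, 0.146% were called higher in GMP, 0.239% in LSK and 0.595% in the average, where 0.00712% were called lower. Their summed level was 1558 to 3047 in deficient GMP against 15.7 to 20.5 in wild-type GMP, and 1553 to 8582 in deficient LSK against 41.0 to 73.9 in wild-type LSK. The globin gene Hba-a2 had the highest level of the list on each deficient array, at 9.55 to 12.9, and weighed most in those sums. Of the 17 genes, 16 had a positive difference in LSK and 17 in GMP, with Gfi1b at −0.47 and Tal1 at 0.26 in LSK. The averaged count ranged from 5 to 15 over the alternatives. In LSK and in GMP the count ranged from 0 to 11. It was 0 in both under median scaling, where 2 of all features were called in LSK and 1 in GMP. Fits without deficient LSK replicate 2 or deficient GMP replicate 1 leave 1 array in a group, so their counts are not given here. The erythroid sums, weighted to globin, were higher in deficient cells in both populations. The Ackr1 difference was 0.36 in GMP and 0.08 in LSK. Erythroid level went with genotype, so their parts in the Ackr1 level cannot be told apart. The part of erythroid transcripts in the Ackr1 level was not tested.

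Of 10 endothelial genes, 7 passed the filter, while Cdh5, Tek and Sele, among the defining markers, did not. None of the 7 was called between genotypes. At an unadjusted p under 0.05 (limma) there was 1 in GMP and 1 in the average, a mark that 4.82% and 12.2% of all features passed. Their summed level was 9.10 to 28.0 in deficient GMP, 16.1 to 18.1 in wild-type GMP, 10.5 to 29.5 in deficient LSK and 15.3 to 18.1 in wild-type LSK. Kdr had the highest level of the 7 on every array and weighed most in these sums. Its level was 4.76 in deficient LSK replicate 2 and 4.68 in deficient GMP replicate 2. On deficient LSK replicate 2 only 2 of the 7 were well above background. Between all GMP and all LSK arrays, 5 of the 7 had a negative difference, with a median difference of −1.20, against −0.046 over all features. In that comparison 2.25% of all features were called lower, and 1 of the 7 was. That was Emcn, an endothelial mucin (−2.76, SE 0.553, adjusted p = 0.0267581), named after its value was seen. The part of endothelial transcripts in the Ackr1 levels was not tested. The smaller B lineage and monocyte lists had 2 of 6 and 1 of 5 tested genes called higher in the averaged genotype comparison, where 0.595% of all features were.

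**Figure D4:**
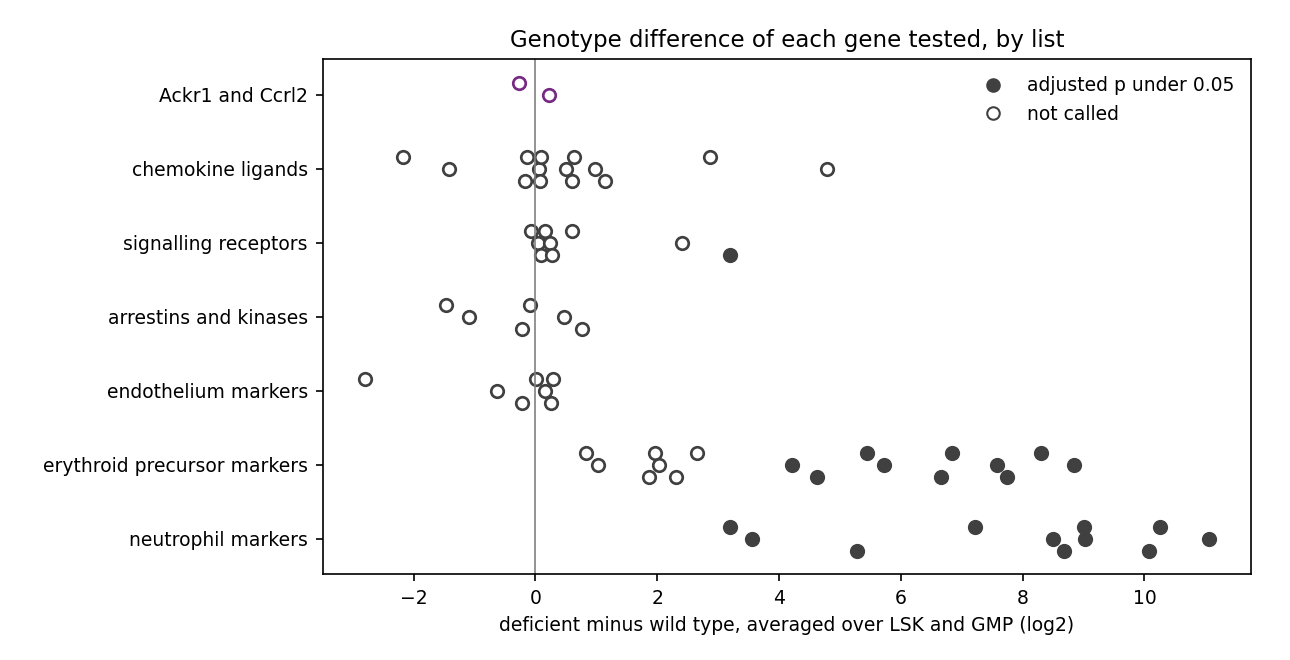
Difference between deficient and wild-type cells, averaged over LSK and GMP (log2), for each tested gene of 7 lists, filled where it was called at an adjusted p under 0.05. Ackr1 (0.22) and Ccrl2 (−0.27) lie beside 0. Ligands run from −2.17 to 4.79 with none called, Cxcr2 is the receptor called, and 10 of 17 erythroid and 11 of 11 neutrophil markers are called to the right.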

How the data were processed

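RNA of sorted LSK and GMP from ACKR1-deficient and wild-type mice was hybridised to 8 one-colour Agilent arrays. Per the file headers, the deposited processed signal is a background-corrected fluorescence intensity from Agilent Feature Extraction 10.7.3.1, and the design is annotated on mm9. The authors' deposited table holds log2 values, centred on each probe over the arrays at the 75th percentile scale (r of 1.00 with the scanner values so treated, column medians −0.27 to 1.25), and was used as an alternative. The sources used here give no further steps.

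Spots marked as controls or outliers were dropped, and the remaining spots of a probe were averaged. Each array's log2 signals were reduced by the log2 of its own 75th percentile. A probe was kept when some group had it well above background on both of its arrays (39098 of 55681 probes), symbols were taken through the RefSeq gene table of GRCm38.p6 (26582 probes), and the probe with the highest mean stood for each gene, giving 28088 features (15856 with a symbol). The test was that of limma 3.58.1 (R 4.3.3) on 4 group means, with Benjamini-Hochberg adjustment over all features and calls at 0.05. Promoters were searched with Python 3.11.15 and figures drawn with matplotlib 3.10.9. Simulated data were used to check that fit. A fold against a group not well above background is written "at least": it is taken against the higher of the probe's own level and the lowest level well above background on each array. The genes and lists were chosen with earlier results of these data known. Named genes are every probe of the 5 receptors, the called genes of each list (at most 6), Cxcl12, Cxcr4, Cxcr2, Ccr2, Ccl3, Ccl5, Ccr7, Cmklr1, Arrb1 and Arrb2 where they passed the filter, and the 3 genes most like each well-detected receptor. Normexp correction (offset 50) used the median spot signal, as the files hold no mean signal. Other alternatives were quantile and median scaling, other filters and probe rules, array weights, blocks, the 4 arrays of a comparison alone, the deposited values and leaving out arrays. The comparison of all GMP with all LSK arrays and the crossed block were added after seeing the data. With 2 arrays a group, their number sets the precision.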

Additional observations from a re-analysis of the deposited data

How the results depend on the processing

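Ackr1 and Ccrl2 were not called in any comparison under any alternative run (19 to 22 for each comparison), while the number of all features called ranged from 0 to 2813 in LSK (67 in the report), 0 to 193 in GMP (41), 40 to 1300 in the genotype average (169), 17 to 2210 between wild-type populations (521), 0 to 4268 between deficient ones (0), 262 to 4076 over all GMP and LSK arrays (961) and 0 to 14 for the difference of differences (0). The highest counts in LSK, between deficient populations and over all arrays came from leaving out deficient LSK replicate 1, and leaving out deficient LSK replicate 2 gave 0 in LSK. The labels do not say whether the replicate numbers pair the samples. The r of deviations, −0.34 in LSK and 0.26 in GMP, cannot settle it with 2 arrays a group. The replicate block gave 81 features in LSK, 69 in GMP and 162 in the average, with 0 of the 5 genes, and a crossed replicate block in LSK gave 624.

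The sign of small differences was not stable, and the cause was not tested. In deficient minus wild-type LSK, Ackr1 turned to −0.18 (quantile normalization), −0.49 (median scaling) and −0.12 (without wild-type LSK replicate 2), and Ccrl2 to 0.17 (without wild-type LSK replicate 2) and 0.26 (without deficient LSK replicate 1). In the genotype average, Ackr1 turned to −0.21 under median scaling. Cxcr4 turned to −0.16 (normexp correction), −0.27 (median scaling), −0.057 (without deficient LSK replicate 2), −0.025 (without wild-type GMP replicate 2), −0.050 (without deficient GMP replicate 1) and −0.27 (without both doubted arrays, deficient LSK replicate 2 and deficient GMP replicate 1). Ccr7 turned to 0.052 and 0.032 (without deficient LSK replicate 1 and deficient GMP replicate 2), and Arrb1 to 0.16 (quantile normalization), 0.12 (without deficient LSK replicate 2) and 0.054 (without both arrays). In GMP minus LSK of wild type, Arrb1 turned to 0.031 under median scaling.

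For the difference of differences, Ackr1 turned to −0.075 (normexp) and Ccrl2 to 0.039 (normexp), 0.14 (median scaling), 0.23 (without wild-type LSK replicate 1), 0.32 (without deficient LSK replicate 2) and 0.19 (without both arrays). Ccrl2 in GMP minus LSK turned to 0.29 (median scaling), 0.33 (without wild-type LSK replicate 2) and 0.088 (without wild-type GMP replicate 2) in wild type, to 0.038 (normexp), 0.43 (median scaling), 0.28 (without deficient LSK replicate 2) and 0.15 (without both arrays) in deficient cells, and to 0.019 (normexp), 0.36 (median scaling), 0.076 (without wild-type LSK replicate 2), 0.12 (without deficient LSK replicate 2) and 0.058 (without both arrays) over all arrays. Leaving out single arrays gave, at the far end of each range, 0.27 for Ackr1 and −0.66 for Ccrl2 in LSK, 0.37 for Cxcr4 and −0.30 for Arrb1 in the genotype average, −0.60 for the Ccrl2 difference of differences, and −0.41 and −0.64 for Ccrl2 in GMP minus LSK of wild-type and deficient cells. Ackr1 kept its sign in GMP minus LSK and in deficient minus wild-type GMP under every alternative run.

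Counts of called list genes varied as follows. Ligands ranged from 0 to 2 called higher and 0 to 3 called lower across comparisons, signalling receptors from 0 to 2 higher and 0 to 3 lower, with 1 as the count of receptors in the report, and arrestins and kinases stayed at 0. Where leaving out 1 array changed such a count, ligands went to 0 or 1 and receptors to 0, 1 or 2. Signal over background limits Ackr2, Ackr3 and Ackr4, which were not compared.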
